A study of Mus musculus with 36 samples.

Results

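The genes described here are 10 that NF-kappaB is known to switch on, or whose products carry or restrain its signal, measured in mouse pancreatic fibroblasts grown with tumour cells. They were chosen by name: the rows of the count table whose symbol was Nfkbia, Tnfaip3, Birc3, Nfkb1, Nfkb2, Relb, Icam1, Vcam1, Il1r1 or Tnfaip2, which makes 10 of 39017 genes. The choice was made with earlier results of these data known. All 10 passed the filter on low counts, as did 14439 genes in all. The fibroblasts were of the C57BL/6 strain. They were grown alone (mono-culture) or for 48 h in contact with 1 of 8 GFP-carrying tumour lines, and the tumour cells were then removed by flow sorting on GFP. The lines were the tumour sub-clones E, H, K, M, N, T and V and a line labelled KPC1, whose name is not spelled out in the labels. No further allele or agent is given for any group, and the labels carry the same culture and sorting text for the mono-culture as for the co-cultures. Each of the 9 groups had 4 poly(A) RNA libraries of 12532122 to 21985538 counts. Nothing in the labels says that libraries of a group came from separate animals or isolates, so p-values measure the spread between these libraries, which may be technical. Each tumour sub-clone is 1 line, so a value for clone V describes that line.

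NF-kappaB is a family of dimeric transcription factors held in the cytoplasm by inhibitor proteins. In the canonical arm, receptors for TNF, interleukin-1 or microbial products activate a kinase complex that marks the inhibitor IkappaB-alpha for destruction, which frees p50 and RelA dimers. In the non-canonical arm, a slower route, the p100 protein made from Nfkb2 is cut to p52, which acts with RelB. The factors switch on their own inhibitors and precursors, so that transcripts of Nfkbia, Tnfaip3, Birc3, Nfkb2 and Relb are commonly read as feedback targets, and they also drive adhesion molecules such as Icam1 and Vcam1. In pancreatic tumours, fibroblasts with inflammatory gene programmes have been linked to interleukin-1 and this pathway.

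The labelled cell type was checked first. Fibroblast markers were high as a sum in every library. The 9 markers summed to between 10884 and 32040 CPM, which are counts scaled to the library total and by the trimmed mean of M-values (TMM). Col1a1, Col1a2 and Col3a1 made up most of the sum, at 7268, 5622 and 5168 CPM in the mono-culture. The mean sum was 21948 CPM in the mono-culture, 14794 with KPC1, 16673 with V, 17023 with H, 17125 with T, 23232 with E, 23550 with N, 26129 with K and 26707 with M, so it moved with the lines. Single markers moved in both directions. Lum, one of the 9, fell as low as 2 counts. Dcn fell as low as 31.1 CPM and Pdgfra as low as 40.6 CPM, from mono-culture means of 317 and 312 CPM. Pdgfrb, Vim and Thy1 reached 1956, 4899 and 407 CPM, from mono-culture means of 576, 2483 and 195 CPM. Markers of leukocytes summed to at most 16.3 CPM, with Cd3e at 0 and Ptprc at no more than 3 counts in any library. Endothelial markers summed to at most 6.39 CPM, with Tie1 at 0 and Cdh5 at no more than 2 counts. Epithelial markers differed between the cultures. The 11 of them summed to 2.74 to 4.18 CPM in the mono-culture and to 21.97 to 864 CPM in the co-cultures, mostly from Krt18, Krt8, Krt19, Cldn6 and Cdh1, while Epcam stayed at no more than 9 counts. The mean sum was 112 CPM for clone V, 163 for K, 178 for H, 266 for M, 370 for E, 379 for KPC1, 538 for T and 555 for N. The epithelial markers move with every comparison against the mono-culture and the fibroblast markers with the lines, and their part in the results was not tested. In RNA from a pool of sorted cells, fewer cells of a type and less RNA per cell cannot be told apart.

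Promoter sequences are shown because these genes are known for sites that NF-kappaB binds, and they were read from RefSeq. The windows run from 250 bases before to 50 after an annotated start (assembly GRCm38.p6, the assembly of mm10), and they were available for 7 of the 10 members, in 11 windows. Each was searched on both strands for the kappaB consensus, the sequence that NF-kappaB dimers bind: GGG, a purine, any 2 bases, a pair of pyrimidines and CC. At least 1 match lay in 7 of the 11 windows, against 8.46% of all 32851 windows searched. These windows belonged to 5 of the 7 genes (Nfkbia, Tnfaip3, Nfkb2, Il1r1 and Tnfaip2), against 9.55% of all 27025 genes. Tnfaip3 and Il1r1 each had another window without a match, and that of Tnfaip3 is not printed below. A looser form that also allows A as the third base marked the same number, 7 of 11 windows, against 11.2% of all. By gene it marked 5 of 7, against 12.6% of all. Birc3 and Icam1 had no match in these windows. The Icam1 window holds tggaaattcc, which departs from the consensus at its first base only. The windows below belong to Nfkb2, whose level differed most clearly between tumour lines, and to Nfkbia and Tnfaip3, the inhibitors of the feedback loop. Matches are in capitals, and overlapping matches form 1 capital run.
Nfkb2, first start, chr19:46304487-46304786, plus strand: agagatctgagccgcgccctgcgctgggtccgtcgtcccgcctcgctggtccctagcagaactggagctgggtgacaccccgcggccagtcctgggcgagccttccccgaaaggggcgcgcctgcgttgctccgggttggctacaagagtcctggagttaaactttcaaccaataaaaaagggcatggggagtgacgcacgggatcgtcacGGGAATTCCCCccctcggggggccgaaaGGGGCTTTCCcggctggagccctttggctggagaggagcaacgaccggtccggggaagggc
Nfkb2, second start, chr19:46305445-46305744, plus strand: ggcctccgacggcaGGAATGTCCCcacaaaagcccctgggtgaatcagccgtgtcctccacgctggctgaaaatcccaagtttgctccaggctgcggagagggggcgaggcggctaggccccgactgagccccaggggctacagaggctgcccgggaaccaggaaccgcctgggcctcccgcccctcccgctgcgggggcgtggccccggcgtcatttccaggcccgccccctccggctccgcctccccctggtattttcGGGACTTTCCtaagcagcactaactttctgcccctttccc
Nfkbia, chr12:55492598-55492897, minus strand: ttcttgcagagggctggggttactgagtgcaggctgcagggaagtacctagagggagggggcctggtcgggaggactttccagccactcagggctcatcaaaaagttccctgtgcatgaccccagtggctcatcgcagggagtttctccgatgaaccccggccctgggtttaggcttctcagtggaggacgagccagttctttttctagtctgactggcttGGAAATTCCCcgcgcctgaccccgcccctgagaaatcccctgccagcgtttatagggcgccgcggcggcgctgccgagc
Tnfaip3, chr10:19015361-19015660, minus strand: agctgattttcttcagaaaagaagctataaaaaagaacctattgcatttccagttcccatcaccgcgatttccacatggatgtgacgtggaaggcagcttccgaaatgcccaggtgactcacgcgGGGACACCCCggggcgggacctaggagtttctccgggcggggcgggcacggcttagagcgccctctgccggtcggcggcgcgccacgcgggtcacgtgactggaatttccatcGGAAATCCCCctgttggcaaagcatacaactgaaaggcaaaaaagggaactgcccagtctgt
In the first Nfkb2 window a palindromic match and a second one shifted by a base form the run from -39 to -29 relative to the start (the start being 0), and a further match covers -11 to -2. The second Nfkb2 window holds matches from -236 to -227 and from 10 to 19, and the latter falls again in the window of the third start. The Nfkbia match covers -29 to -20, and those of Tnfaip3 cover -125 to -116 and -12 to -3. A match is a string of letters, not a measured binding site, and a window without a match may still hold a site.

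**Figure D1:**
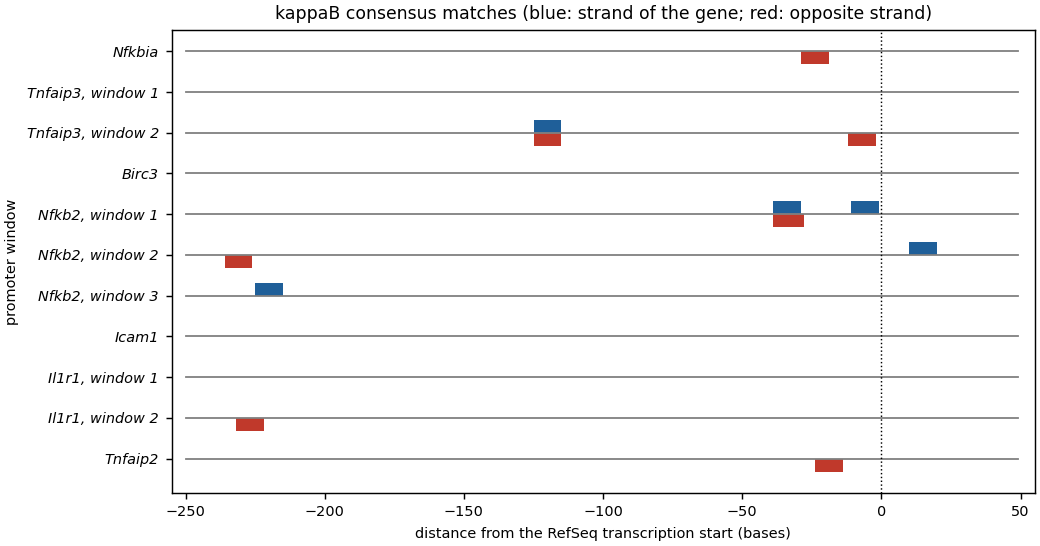
Position of kappaB consensus matches (coloured blocks) in the 11 RefSeq promoter windows of 7 members, with the distance from the annotated start in bases on the horizontal axis. Blue blocks above a line are on the strand of the gene and red blocks below it on the opposite strand. Matches lie in 7 of the 11 windows, 3 of which belong to Nfkb2.

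On the scale of reads scaled by gene length and library total (RPKM), which allows levels of different genes to be compared, the members spanned a wide range in the mono-culture. Vcam1 was highest at 77.8 ± 4.13 RPKM (SD, n = 4), followed by Tnfaip2 at 49.2 ± 2.41, Nfkb2 at 34.6 ± 1.99, Nfkbia at 28.7 ± 1.99 and Nfkb1 at 27.4 ± 2.17 RPKM. Il1r1 (7.83 ± 0.609 RPKM), Relb (5.66 ± 0.391), Birc3 (3.77 ± 0.494) and Tnfaip3 (1.79 ± 0.270) were lower. Icam1, the ligand for leukocyte integrins, was close to absent, at 0.158 ± 0.0552 RPKM and 3 to 10 counts per library. Its counts ran from 0 to 39 over the 36 libraries, so every Icam1 value below carries a large counting error. The other 9 members had at least 133 counts in every library.

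The first question was which members differed between each co-culture and the mono-culture. The tests are edgeR quasi-likelihood tests with Benjamini-Hochberg adjustment over 14439 genes, and a member is called at an adjusted p under 0.05. The 8 comparisons share the same 4 mono-culture libraries, so they are not independent of each other. Because the members were chosen with earlier results of these data known, their counts cannot test enrichment. The shares of all genes are printed for scale only. With KPC1, 8 of 10 members were higher and 0 lower, where 30.5% of all genes tested were higher and 28.5% lower. With clone V, 6 were higher and 2 lower (all genes 29.4% and 28.9%). With clone H, 6 were higher and 0 lower (27.8% and 26.4%). The members below the mono-culture in KPC1 and H had no unadjusted p under 0.05 either, and DESeq2 called 0 of them. KPC1, V and H were also the lines with the most calls among all genes. Clones N and T each had 4 members higher and 1 lower, against 19.7% of all genes higher and 19.2% lower for N, and 25% and 24.7% for T. Clone E had 2 higher and 1 lower (16.5% and 15.5%). In a fit to the libraries of E and the mono-culture alone it had 5 higher and 1 lower. The share of all genes called in that fit was not counted. Clone K had 2 higher and 1 lower (10.4% and 8.69%). Clone M had 1 higher and 1 lower (12.2% and 10.8%). A replicate block in the fit made that 2 higher, and the share of all genes was not counted there either. The median log2 fold change of the 10 members was 0.95 for KPC1, 0.58 for H, 0.58 for T, 0.54 for V, 0.42 for N and 0.32 for E, and it was -0.13 for K and -0.07 for M, where the median of all genes lay between -0.01 and 0.01. The members called with clones K and M were Il1r1 (higher with both), Tnfaip2 (higher with K) and Vcam1 (lower with both).

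**Figure D2:**
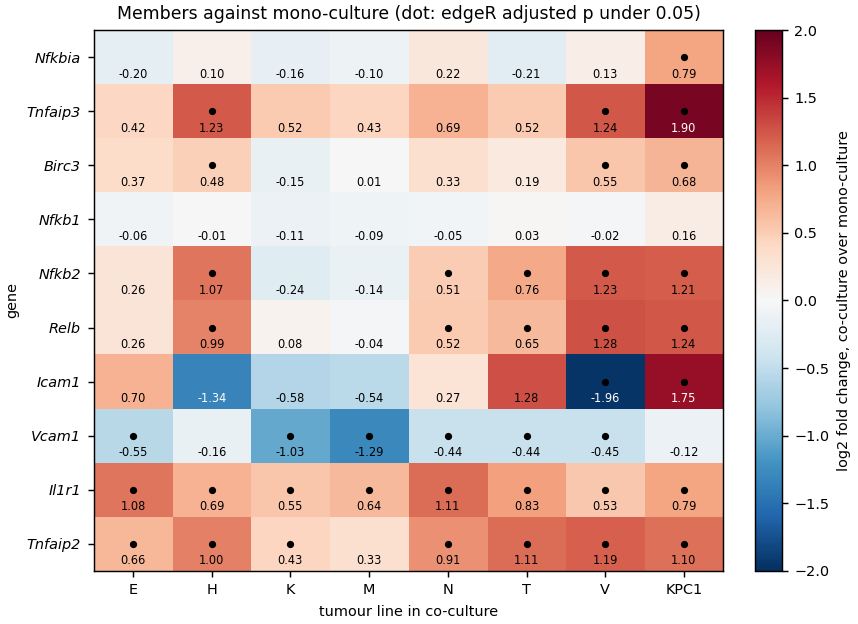
Log2 fold change of each of the 10 members (rows) in each co-culture over the mono-culture (columns, by tumour line), as colour and number, with a dot where the edgeR adjusted p was under 0.05. Il1r1 has a dot in all 8 columns, Vcam1 is blue with a dot in 6, Nfkb2 and Relb share 5 columns, and Nfkb1 has none.

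One library has to be described before the members are taken in turn. KPC1 replicate 1 was the highest of the 4 KPC1 libraries for all 10 members, where over all genes tested it was the highest for 19.7%. The gap was wide for a few genes and narrow for others. It held 168 CPM of Nfkbia, where the other KPC1 libraries held 36.2, 50.7 and 44.9. Its epithelial markers summed to 625 CPM, above the 198 to 385 CPM of the other 3, and its leukocyte markers to 12.97 CPM, where the other 3 had 6.81 to 12.4. The part of these in its high values was not tested. Without this library, 6 members rather than 8 were higher with KPC1 (27.7% of 14656 genes tested), and Nfkbia and Icam1 were no longer called.

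By the test among lines given further on, Nfkb2 and Relb, the precursor and the partner of the non-canonical dimer, differed most clearly between tumour lines. Nfkb2 (chr19:46304320-46312385, plus strand, mm10) had 106, 103, 103 and 113 CPM in the mono-culture. It reached 288, 247, 213 and 247 CPM with clone V, 305, 234, 240 and 202 with KPC1, and 223, 240, 239 and 190 with clone H. Every library of these 3 groups lay well above every mono-culture library. The log2 fold change was 1.23 ± 0.12 (SE, adjusted p = 1.2e-09, edgeR) for V, 1.21 ± 0.12 (1.5e-09) for KPC1 and 1.07 ± 0.12 (2.1e-08) for H. Clones T and N came next, with 163, 209, 169 and 178 CPM for T and 124, 152, 163 and 166 for N. Both groups again lay wholly above the mono-culture, with log2 fold changes of 0.76 (adjusted p = 6.1e-06) and 0.51 (0.0012). Clone E, at 147, 119, 124 and 119 CPM, also lay above every mono-culture library but did not pass the test (log2 fold change 0.26, adjusted p = 0.10). Clone M had 88.1, 86.9, 113 and 97.6 CPM and clone K had 107, 83.7, 81.5 and 87.8. Both overlapped the mono-culture and neither passed the test, at log2 fold changes of -0.14 and -0.24. Ordered by mean, the groups were V, KPC1, H, T, N, E, mono-culture, M and K. Of the 8 steps between neighbours in this order, 4 were larger than the larger of the neighbours' SDs: those from H to T, T to N, N to E and E to the mono-culture. Neither V, KPC1 and H nor the mono-culture, M and K were separated by that measure.

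Relb (chr7:19606217-19629438, minus strand), which encodes the RelB subunit, was high in those groups too. It stood at 18.7, 16.8, 18.5 and 16.9 CPM in the mono-culture. With clone V it had 47.2, 44.1, 37.3 and 43.6 CPM, with KPC1 54.6, 48.6, 37.5 and 26.7, and with clone H 29.2, 36.3, 43.6 and 32.1. No library of these groups overlapped the mono-culture, and KPC1 had the widest spread of the 3. The log2 fold changes were 1.28 ± 0.15 (SE, adjusted p = 2.4e-08, edgeR) for V, 1.24 ± 0.15 (4.4e-08) for KPC1 and 0.99 ± 0.15 (2.2e-06) for H. Clone T (23.3 to 33.02 CPM) and clone N (24.2 to 26.9 CPM) were higher as well, by 0.65 and 0.52 on the log2 scale. Clones E, K and M were not called, at 0.26, 0.08 and -0.04. Over the 9 group means of log2 CPM, Nfkb2 and Relb had a Pearson r of 0.98, the highest of the 45 pairs of members. Within groups, that is on the deviations of the 36 libraries from their group means, r was 0.72. These correlations describe 9 groups that share libraries, depth and scaling. The 3 lines with the highest mean Nfkb2 and Relb, V, KPC1 and H, had the 3 lowest mean fibroblast sums (16673, 14794 and 17023 CPM). K and M, with the lowest mean Nfkb2, had the 2 highest (26129 and 26707 CPM). These ranks were not well separated. Clone T had 17125 CPM, where the SD was 2063 for H and 4729 for V. Clone N had 23550 CPM, where the SD was 4715 for K and 4752 for M. Collagen genes made up most of the sum in the mono-culture, and single fibroblast markers moved in both directions. The mean epithelial sums were 112 CPM with V, 379 with KPC1 and 178 with H, and 163 with K and 266 with M. The part of either in the levels of Nfkb2 and Relb was not tested. Part of the exons of Nfkb2, 830 of 4584 bases, is overlapped by exons of other genes on the opposite strand (Psd and AC114539.1, GENCODE M21), and whether the counting used strand is not given in the sources used here. No other gene's exons overlap those of Relb.

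**Figure D3:**
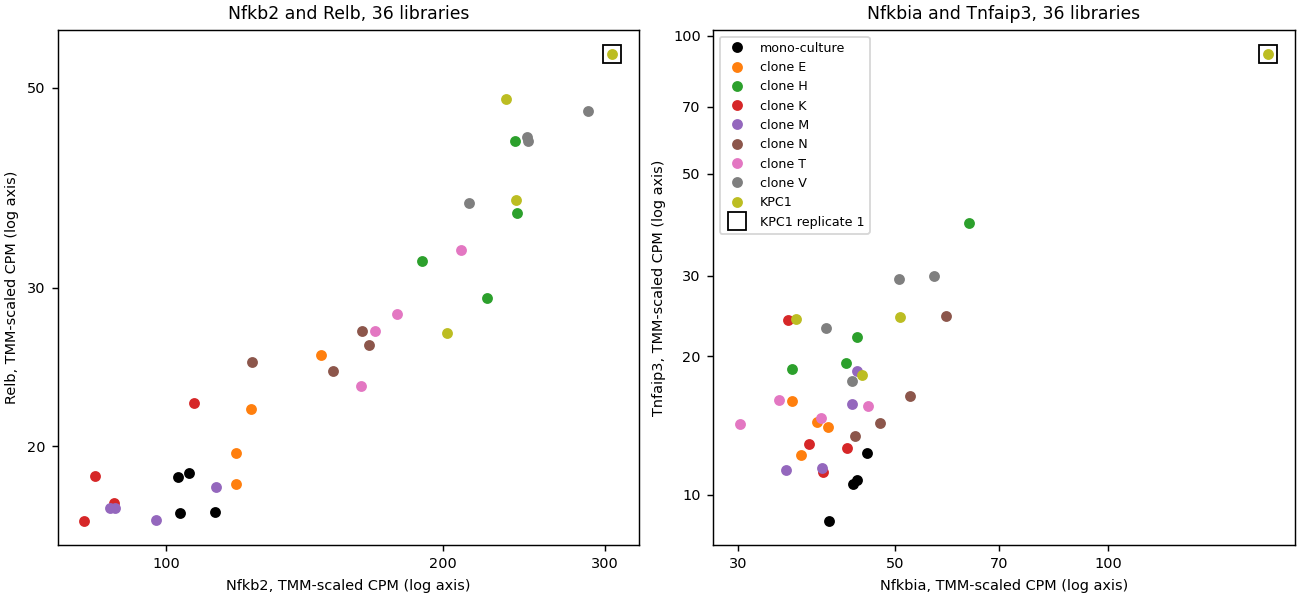
TMM-scaled CPM of Nfkb2 against Relb (left) and of Nfkbia against Tnfaip3 (right) in the 36 libraries, both on log axes, coloured by group, with KPC1 replicate 1 in a square. On the left the libraries of clone V, clone H and KPC1 fill the upper right and those of clones K and M and the mono-culture the lower left. On the right KPC1 replicate 1 stands alone at 168 and 91.3 CPM.

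Nfkb1 (chr3:135584655-135691547, minus strand), the p105 precursor of p50 and the canonical counterpart of Nfkb2, was called in 0 of 8 comparisons. It ranged from 100 to 119 CPM in the mono-culture and its group means lay between 100 CPM (clone K) and 120 CPM (KPC1). The log2 fold changes ran from -0.11 to 0.16 (SE 0.11 in each line), 0 of them had an unadjusted p under 0.05 with edgeR, and DESeq2 called 0. Without KPC1 replicate 4, its lowest library, the KPC1 value was 0.30 and passed the test (adjusted p = 0.0087). With all 4 libraries, an interval of 2 SE around the KPC1 value reaches 0.38, below the 1.21 of Nfkb2 in that line. The 4 KPC1 libraries were spread widely, at 153, 125, 120 and 82.8 CPM.

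The 3 feedback inhibitors and survival genes differed in how far they rested on single libraries. Tnfaip3 encodes A20, a ubiquitin-editing enzyme that shuts the signal off. It had 10.6, 8.75, 12.3 and 10.8 CPM in the mono-culture. It had 17.7, 23.1, 29.4 and 29.98 CPM with clone V, 18.8, 22.1, 39.1 and 19.3 with clone H, and 91.3, 24.2, 24.3 and 18.2 with KPC1. All 12 libraries lay above the mono-culture, and 1 library in H and 1 in KPC1 stood far above the others. The log2 fold changes were 1.24 ± 0.35 (SE, adjusted p = 0.0033, edgeR) for V, 1.23 ± 0.35 (0.0040) for H and 1.90 ± 0.35 (3.6e-05) for KPC1. Without KPC1 replicate 1 the KPC1 value was 1.06 (adjusted p = 7.2e-04). The other 5 lines were not called, at 0.42 to 0.69 on the log2 scale, although all 4 libraries of clones N and T lay above those of the mono-culture.

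Nfkbia encodes IkappaB-alpha, the inhibitor that is destroyed and then remade when the canonical arm is active. It had 43.5, 40.3, 45.6 and 44.1 CPM in the mono-culture, and the means of the 7 clones lay between 37.4 CPM (T) and 50.7 CPM (N). Of the 7 clones 0 passed the test, at log2 fold changes from -0.21 to 0.22 with an SE of 0.27 to 0.28, 0 had an unadjusted p under 0.05 and DESeq2 called 0. KPC1 was called higher (log2 fold change 0.79 ± 0.28, adjusted p = 0.014, edgeR), and this rested on replicate 1: the other 3 KPC1 libraries spanned the level of the mono-culture. Without replicate 1 the value was 0.01 (adjusted p = 0.96), with a mean of 43.9 ± 7.31 CPM (SD, n = 3). Birc3, which encodes the ubiquitin ligase cIAP2, moved with smaller steps. It had 8.91 to 11.7 CPM in the mono-culture, 12.97 to 17.8 with clone V, 12.2 to 17.7 with clone H and 12.9 to 23.6 with KPC1, all above the mono-culture. Its log2 fold changes there were 0.55, 0.48 and 0.68 (adjusted p = 0.0024, 0.0083 and 2.9e-04, edgeR). Clones E, N and T were not called (0.37, 0.33 and 0.19), nor were K and M (-0.15 and 0.01), and N passed the test without its replicate 2 (0.43, adjusted p = 0.031). Without clone H replicate 3 the Birc3 call for H was lost (adjusted p = 0.057).

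**Figure D4:**
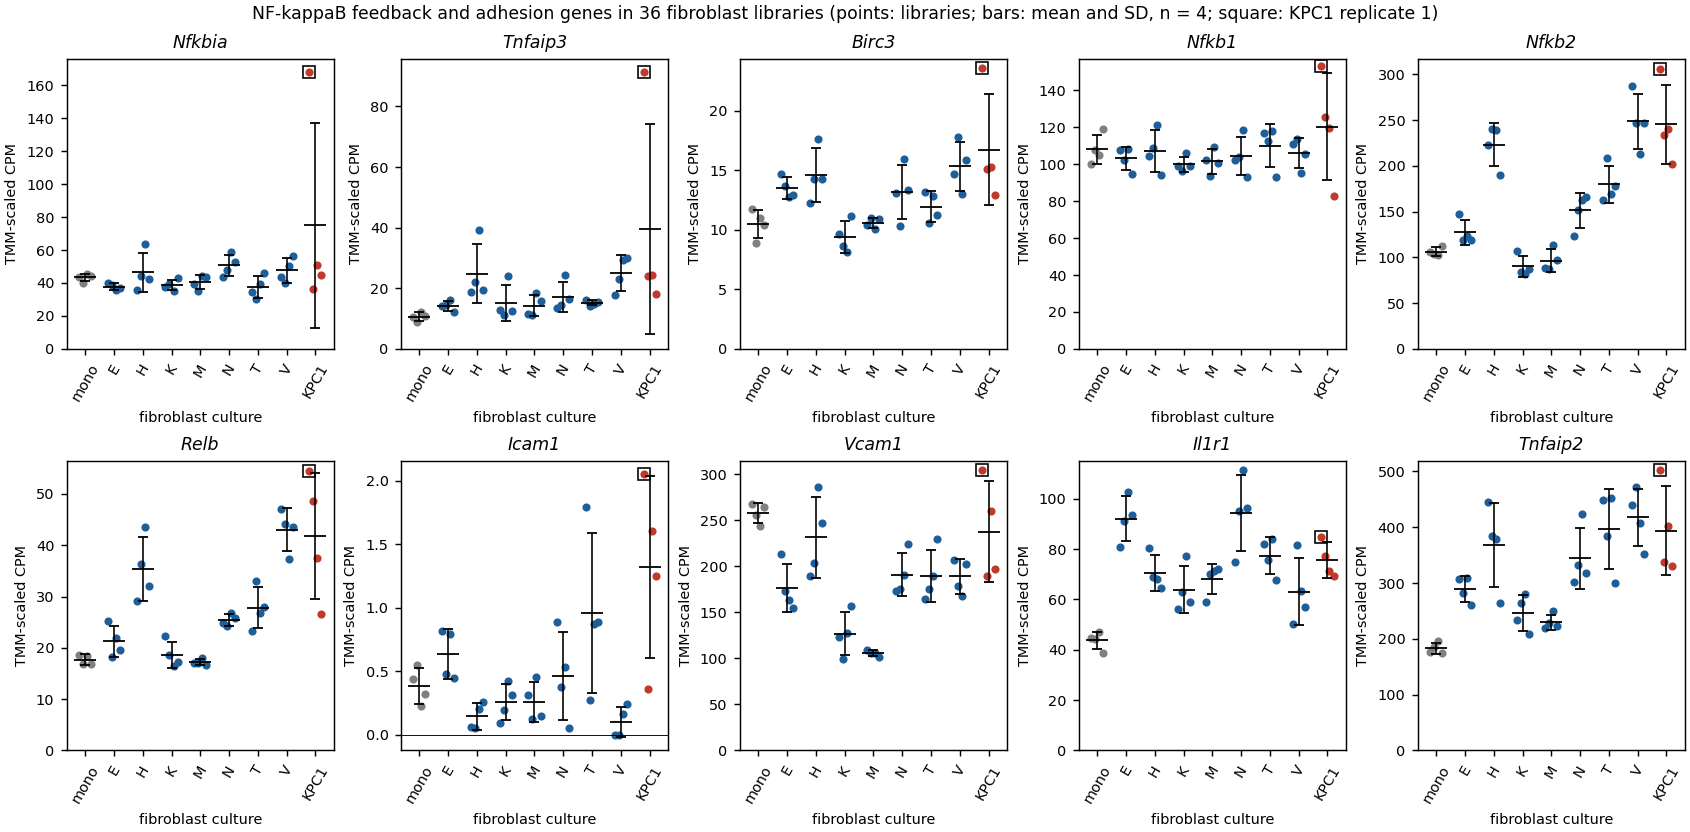
TMM-scaled CPM of each member in the 36 libraries, by group, with points for libraries, a bar for the mean and SD of 4 libraries, and a square around KPC1 replicate 1. Nfkb2 and Relb step up from clones K and M to clone V and KPC1, Il1r1 lies above the mono-culture in every co-culture, Vcam1 lies below it in most, and the squared point is the top KPC1 point in all 10 panels.

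The adhesion molecules were the only members called lower: Vcam1 in 6 of 8 comparisons and Icam1 in 1, with Icam1 also called higher in 1. Uncalled values of Nfkbia, Birc3, Nfkb2 and Relb lay below 0 in at least 1 line each. Vcam1 (chr3:116109949-116129688, minus strand) encodes the vascular cell adhesion molecule, a ligand for the integrin VLA-4 that stromal cells also carry. It had 268, 256, 244 and 265 CPM in the mono-culture. It fell to 109, 106, 106 and 102 CPM with clone M and to 124, 99.1, 128 and 157 with clone K. Both groups lay wholly below the mono-culture, and clone M had the tightest libraries. The log2 fold change was -1.29 ± 0.15 (SE, adjusted p = 7.1e-08, edgeR) for M and -1.03 ± 0.14 (4.3e-06) for K. Clones E, N, T and V were lower as well, each with 4 of 4 libraries below the mono-culture, by -0.55, -0.44, -0.44 and -0.45 on the log2 scale. The call for clone N was lost without its replicate 2 (adjusted p = 0.051). Clone H (190, 204, 287 and 247 CPM) and KPC1 (305, 190, 260 and 197 CPM) overlapped the mono-culture and were not called, at -0.16 and -0.12. Clones K and M, which had the lowest mean Nfkb2, also had the lowest mean Vcam1, and over the 9 group means the r of these genes was 0.60.

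Icam1 was the member called in opposite directions. Its counts were 8, 10, 3 and 7 in the mono-culture, 39, 6, 26 and 22 with KPC1, and 0, 0, 3 and 4 with clone V. The KPC1 libraries overlapped the mono-culture in CPM at replicate 2, and 3 of 4 clone V libraries lay below the mono-culture. KPC1 was called higher (log2 fold change 1.75 ± 0.61, adjusted p = 0.015, edgeR) and clone V lower (-1.96 ± 0.80, adjusted p = 0.035). Without KPC1 replicate 1 the KPC1 value was 1.44 (adjusted p = 0.063). Leaving out clone V replicate 1 or 2, or mono-culture replicate 1 or 2, ended the clone V call (-1.55, -1.53, -1.90 and -1.75, adjusted p from 0.064 to 0.11), and leaving out clone T replicate 2 brought a call for T (1.59, adjusted p = 0.038). The other 6 lines, from -1.34 (H) to 1.28 (T), were not called. Exons of the antisense gene Gm47079 cover 511 of the 4360 exonic bases of Icam1, so some of these few reads may belong to that gene.

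Il1r1 (chr1:40225080-40317257, plus strand), the signalling receptor for interleukin-1, was higher with all 8 lines. It had 44.6, 44.2, 47.0 and 38.8 CPM in the mono-culture. With clone N it had 74.7, 94.99, 111 and 96.4 CPM and with clone E 80.9, 91.2, 103 and 93.5. Each of the 32 co-culture libraries, the lowest of which had 50.4 CPM (clone V), lay above the highest of the mono-culture. The log2 fold changes ran from 0.53 ± 0.13 (SE, adjusted p = 5.6e-04, edgeR) for V to 1.11 ± 0.13 (4.2e-08) for N, with 1.08 for E, 0.83 for T, 0.79 for KPC1, 0.69 for H, 0.64 for M and 0.55 for K. Clone V, with the highest mean Nfkb2 and Relb, had the lowest mean Il1r1 of the co-cultures. The order N, E, T, KPC1, H, M, K and V had 1 step beyond the SDs, from E to T, and the step from V to the mono-culture was another.

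Tnfaip2 (chr12:111442469-111455018, plus strand), a TNF-induced gene linked to membrane protrusions, was the highest member per length in all 8 co-cultures, at group means of 60.8 to 105 RPKM. It had 177, 186, 196 and 175 CPM in the mono-culture, and 440, 472, 407 and 351 with clone V, 448, 385, 452 and 300 with clone T, and 503, 338, 402 and 330.5 with KPC1. No co-culture library overlapped the mono-culture, clone K (208 to 280 CPM) and clone M (220 to 249 CPM) included. The log2 fold changes were 1.19 ± 0.14 (SE, adjusted p = 4.3e-08, edgeR) for V, 1.11 for T, 1.10 for KPC1, 1.005 for H, 0.91 for N, 0.66 for E and 0.43 for K (adjusted p = 0.033). The clone K call was lost without mono-culture replicate 1, 2 or 4 or clone K replicate 2 or 3 (0.36 to 0.43, adjusted p from 0.063 to 0.12). Clone M was not called (0.33, adjusted p = 0.10), but was with the replicate number as a block (0.33, adjusted p = 0.025). The group order of Tnfaip2, V, T, KPC1, H, N, E, K, M and mono-culture, placed K and M next to the mono-culture as for Nfkb2, and r with Nfkb2 over the 9 group means was 0.88.

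The second question was whether the level of a member depended on the tumour line, without the mono-culture. In an F-test among the 8 co-cultures 9 of 10 members were called, where 72% of all genes tested were, so that most genes differed by line and the members' count is read against that. Nfkb2 had the strongest evidence (F = 44.6, adjusted p = 3.5e-12, edgeR) and ranked 38 of 14439 genes by p. Its mean with clone V was 2.76 times its mean with clone K. Relb followed (adjusted p = 1.5e-09, rank 591), then Vcam1 (1.3e-07, rank 1841) and Tnfaip2 (4.9e-06, rank 3414). The remaining members ranked from 5099 (Icam1) to 13106 (Nfkb1). Icam1 (1.0e-04), Birc3 (1.7e-04), Il1r1 (2.3e-04), Tnfaip3 (9.3e-04) and Nfkbia (0.017) were called too, and Nfkb1 was not (0.43). Without KPC1 replicate 1 the same 9 were called, where 69.5% of all genes were, with Nfkbia at an adjusted p of 0.036.

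The genes whose log2 CPM over the 36 libraries was most like that of each member were taken from 11695 genes with a mean of at least 2 CPM. For Nfkbia these were Cxcl1 (r = 0.85), Tnfaip3 (0.74) and Zc3h12a (0.74). The 36 libraries include KPC1 replicate 1. Within groups, the r of Nfkbia and Tnfaip3 was 0.80 with that library and 0.64 without it. For Tnfaip3 they were Ier3 (0.79), Chd7 (0.79) and Rtn4 (0.78). For Relb the nearest was Nfkb2 (0.95), before Ccrn4l (0.95) and Fxr2 (0.94). For Nfkb2 they were Ipo7 (0.97), Tnpo2 (0.96) and Stam (0.95). Tnfaip3 and Nfkb2 in these sets are members themselves, and Ier3 is on the pathway list. For Il1r1 they were Tgfbr1 (0.91), Ptpn1 (0.90) and Sod3 (0.89), and for Tnfaip2 Golph3 (0.95), Sec63 (0.94) and Dusp4 (0.94). Birc3 was nearest to Eif6 (0.81), Rab20 (0.80) and Casp4 (0.80), and Vcam1 to H2-K1 (0.81), Phex (0.80) and Stx11 (0.79). Icam1 was nearest to Plce1 (0.79), Mnt (0.79) and Fam63a (0.79), and Nfkb1 to Antxr2 (0.74), Btbd9 (0.71) and Rptor (0.70). The values are correlations across libraries that share group differences, depth and scaling, and they say nothing of function.

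The rest of the pathway was read from a list of 67 other genes, 57 of which passed the filter. This list too was chosen with earlier results of these data known, so its counts cannot test enrichment. With KPC1 25 were higher and 16 lower (all genes 30.5% and 28.5%), with V 25 and 17 (29.4% and 28.9%), with H 24 and 13 (27.8% and 26.4%), and with N 23 and 9 (19.7% and 19.2%). With T 18 were higher and 16 lower (25% and 24.7%), with E 16 and 10 (16.5% and 15.5%), with K 7 and 5 (10.4% and 8.69%), and with M 7 and 8 (12.2% and 10.8%). Among the co-cultures 46 of the 57 differed, where 72% of all genes did. The list median log2 fold change lay between 0.02 (K) and 0.27 (V).

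Among the ligands, the cytokines at the head of the pathway were barely detected in the fibroblasts. Tnf and Il1a had at most 1 count and Il1b none in any library, and Lta and Ltb had at most 4 counts. A count of 0 in 36 libraries bears on transcripts in these RNA samples and not on protein from other cells. Il33, an alarmin of the interleukin-1 family, was higher with all 8 lines, from 4.58 ± 0.739 CPM (SD, n = 4) in the mono-culture to 10.8 with K and 38.8 with N (log2 fold changes 1.22 to 3.07). Tnfsf11, which encodes RANKL, a ligand known to feed the non-canonical arm, had 0 to 3 counts in each mono-culture library, and it was called higher with 6 lines, all but K and M, at mean levels of 0.425 to 1.49 CPM. Tnfsf12, which encodes TWEAK, was lower with H, T, V and KPC1, by -0.62, -0.54, -1.02 and -0.53.

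Of 20 receptors and adaptors, 3 to 9 were lower and 1 to 6 higher in each co-culture. Over the same co-cultures, 8.69% to 28.9% of all genes were lower and 10.4% to 30.5% higher. The TWEAK receptor Tnfrsf12a was higher with 7 lines, up to 207 CPM with V from 40.3 ± 5.83 CPM in the mono-culture (log2 fold change 2.36), and was not called with M (0.05). Traf1, an adaptor that is itself a target of the pathway, was higher with 5 lines, from 0.771 ± 0.329 CPM to 7.18 CPM with KPC1 (log2 fold change 3.23), and was not called with K, M or V. The IL-33 receptor Il1rl1 was lower with K, M and T, by -2.11, -2.61 and -1.17. Toll-like receptors were lower: Tlr3 and Tlr4 with all 8 lines (log2 fold changes -1.46 to -0.69 and -0.77 to -0.39) and Tlr2 with 6. The adaptor of the TNF receptor Tradd and the ligase Traf6 were each lower with 6 lines. The receptor Tnfrsf1a changed by at most 0.43, called higher with E, N and T. Ltbr, a receptor of the non-canonical arm, was higher with E, K, N and T (0.35, 0.20, 0.36 and 0.21). It was not called with H, M, V or KPC1 (-0.02, 0.19, 0.14 and 0.04).

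Of 16 kinases and ubiquitin regulators, Chuk, which encodes the kinase IKK-alpha that the non-canonical arm depends on, was higher with 6 lines (0.31 to 0.89, highest with V). Map3k14, which encodes NIK, another kinase of that arm, was higher with E, N and V (0.32, 0.40 and 0.27). Map3k14 was not called with H, T or KPC1 (0.13, -0.12 and -0.07), nor with K or M (0.26 and 0.28). Ikbkb, the kinase of the canonical arm, had an adjusted p of at least 0.60 with every line, and its group means lay between 45.2 and 48.99 CPM. Ikbkg, the scaffold of the complex, was lower with 6 lines, by up to -0.81 with V. Otulin, a linear-ubiquitin hydrolase, was lower with 5 lines, by up to -0.84 with KPC1. Tnip3, a partner of A20, had 1 count in the whole mono-culture and at most 26 counts in any library, and was called higher with N, V and KPC1.

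Among the 7 other subunits and inhibitors, 6 were higher with KPC1 (all genes 30.5%), 6 with H (27.8%), 5 with V (29.4%), 4 with N (19.7%), 3 with T (25%), 2 with E (16.5%), 1 with M (12.2%) and 0 with K (10.4%), where the smallest adjusted p was 0.11 (edgeR). Bcl3, an IkappaB-like co-factor of p50 and p52, was higher with 7 lines, from 4.95 ± 0.699 CPM in the mono-culture to 17.7 with N and 17.97 with KPC1. Nfkbib, the inhibitor IkappaB-beta, was higher with 6 lines, by up to 1.36. Rela was higher with H, T, V and KPC1, by 0.25 to 0.53. Nfkbiz, another IkappaB-like protein, was higher with H, N and KPC1. It held 113 CPM in KPC1 replicate 1 and at most 32.9 CPM in the other KPC1 libraries. Nfkbid, at 1 to 26 counts per library, was lower with E (-1.34) and not called with the other 7.

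Other targets were mixed. Ptgs2, the inducible cyclooxygenase, was higher with all 8 lines, from 25.4 ± 7.84 CPM to 233 with H and 273 with V (log2 fold changes 3.20 and 3.43) and to 52.3 with K. The survival gene Bcl2l1 was higher with all 8 (0.49 to 1.12), and Ier3, an early-response gene, with 7 (1.02 to 2.48, K not called). Csf2, which encodes GM-CSF, had at most 1 count in any mono-culture library and was called higher with 7 lines, at mean levels of 0.454 to 3.45 CPM. Selp, which encodes P-selectin, had 0 counts in each mono-culture library and 142 to 267 counts with clone T, at least 43.6-fold higher when the mono-culture is set to 3 counts in its smallest library (0.228 CPM). Its counts were also raised with KPC1 (16 to 94), N (22 to 41), E (10 to 47) and V (5 to 52). They stayed low with H (0 to 9), K (1 to 9) and M (0 to 11). Against these, Sod2, a mitochondrial enzyme often used as a readout of the pathway, was lower with all 8 lines (-0.48 to -0.23), and Mmp9 was lower with 7, from 5.01 ± 1.003 CPM to between 0.788 and 1.67 CPM.

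**Figure D5:**
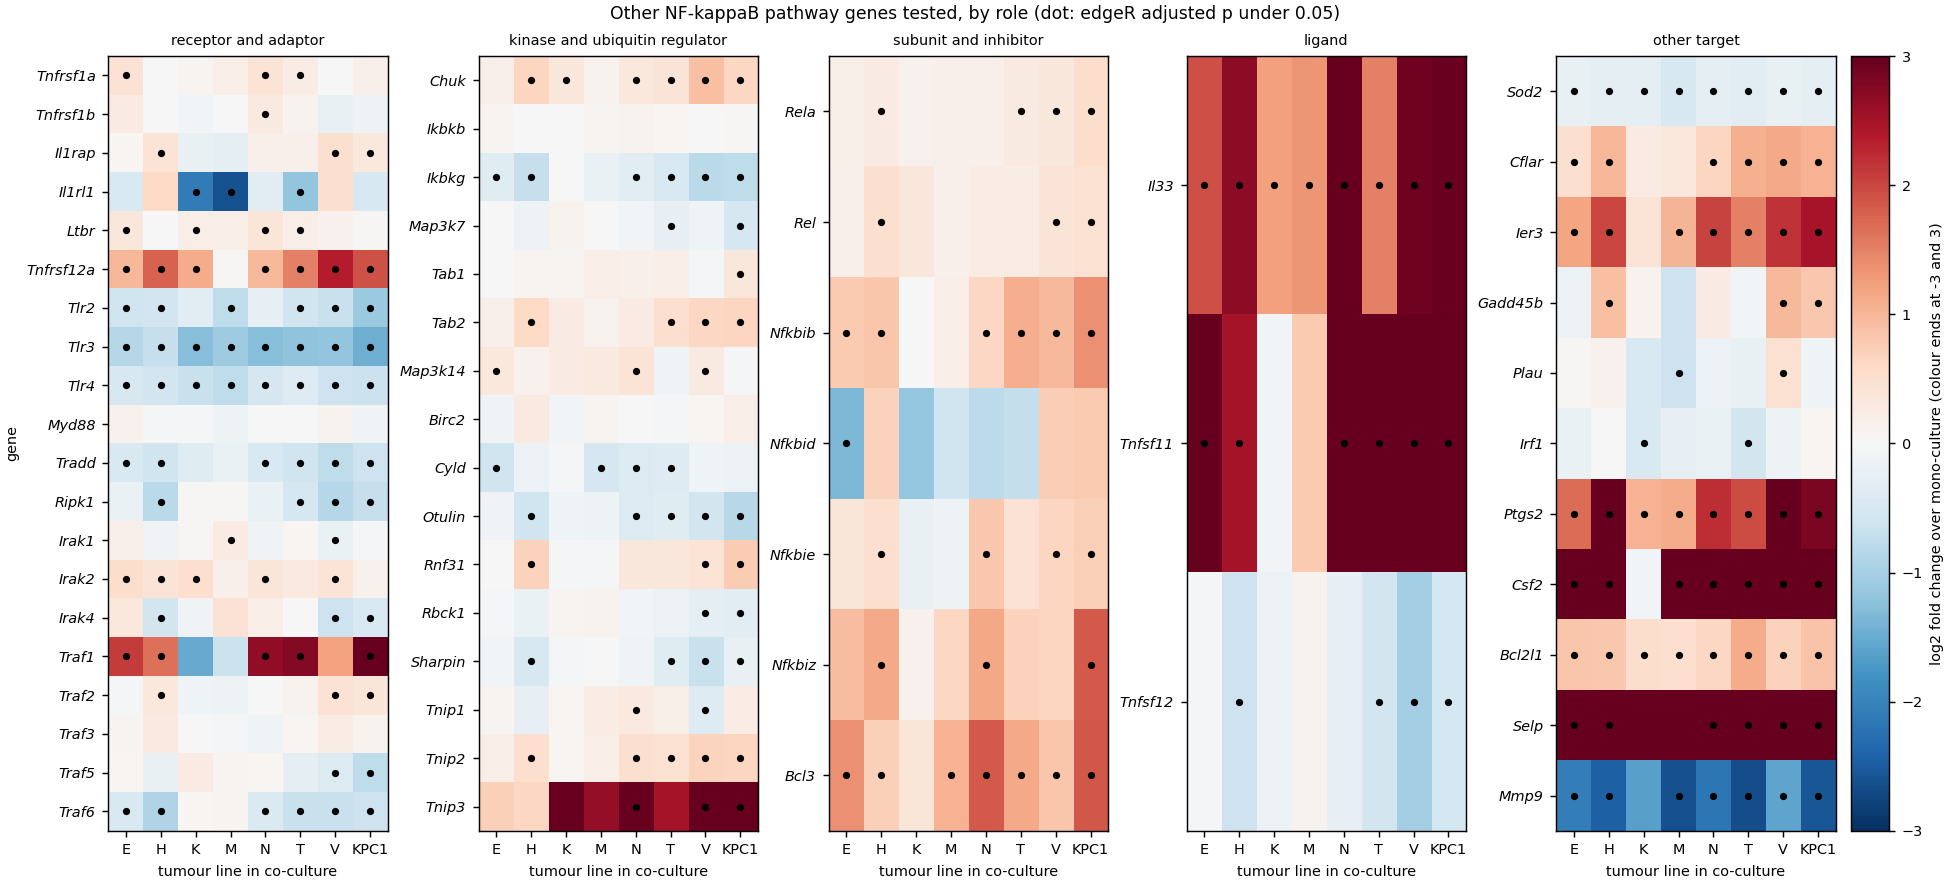
Log2 fold change over the mono-culture of the 57 other pathway genes tested, in panels by role, with tumour lines in columns, colour ending at -3 and 3, and a dot where the edgeR adjusted p was under 0.05. Il33, Ptgs2 and Bcl2l1 are red with dots in all 8 columns and Tlr3, Tlr4 and Sod2 blue with dots in all 8. For Selp, Csf2, Tnfsf11 and Tnip3, with 3 or fewer counts in each mono-culture library, the colour is the fitted value and not a measured fold.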

How the data were processed

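For 39017 genes in 36 libraries the authors deposited unscaled, whole-number counts, and for 37746 of these genes RPKM values, used here for levels between genes. Strand-specific libraries (200 ng of total RNA, 14 amplification cycles) were read as 76 bp pairs. The submitters' processing notes name STAR, featureCounts, edgeR and mm10. The annotation and the strand setting are not given in the sources used here. Groups came from the labels. The members and gene lists were chosen with earlier results of these data known.

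Counts were analysed with edgeR 4.0.16 (R 4.3.3): filterByExpr, TMM scaling, robust quasi-likelihood fits with 1 coefficient for each of 9 groups, Benjamini-Hochberg adjustment over 14439 genes and a threshold of 0.05. The F-statistic and the fold change gave the standard errors. log2 CPM used a prior count of 1. With 12532122 to 21985538 counts per library, counting error matters mainly for genes such as Icam1, and floors (3 counts) cover counting error only. Of the list symbols, 2 matched through older names. The smallest chi-square per degree of freedom between libraries of a group was 5.53, so no pair of libraries agreed within sampling noise. Each member is named with its values. Pathway genes were named by the largest absolute log2 fold change among those called, in each role, and the remainder after their values were seen. The 3 nearest genes by Pearson r are named for each member. The alternatives tried were RLE scaling, library size alone, DESeq2 1.42.0, every gene with a count, genes with at least 10 counts throughout, limma-trend (limma 3.58.1) on log2(RPKM + 1) and log2(RPKM + 0.1), fits to only the groups compared, replicate number as a block, and leaving out each library.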

Additional observations from a re-analysis of the deposited data

Results flagged for a closer look

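Over 90 sets of 4 libraries (10 members in 9 groups), the library farthest from the rest stood further out than Dixon's 95% critical value for 4 values in 5, where chance alone gives about 1 in 20, or 4.5. In KPC1, replicate 1 was far above the others for Nfkbia (gap over range 0.89) and for Tnfaip3 (0.917). Without it the log2 fold change of Nfkbia over the mono-culture went from 0.79 to 0.01 and that of Tnfaip3 from 1.90 to 1.06, the latter still called. Replicate 3 was far above the others for Tnfaip3 in clone H (0.839) and in clone K (0.865). Without it the Tnfaip3 value was 0.92 for H (adjusted p = 0.035, edgeR), still called, and 0.21 for K, not called in either case. In clone E, replicate 1 was the high library for Nfkb2 (0.834), and the value without it was 0.19, also not called.

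Icam1 was called higher with KPC1 and lower with clone V, and its levels differed among the 8 co-cultures in the F-test (adjusted p = 1.0e-04, edgeR). With 0 to 39 counts per library, both calls rest on few reads.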

How the results depend on the processing

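Depth limits Icam1, which could not be tested with at least 10 counts in every library, and whose clone V call was lost with limma-trend on log2(RPKM + 1) (-0.16, adjusted p = 0.20). The Nfkbia call for KPC1 was lost with limma-trend (0.39 to 0.40, adjusted p = 0.18) and in a fit to only the groups compared (0.78, adjusted p = 0.19). Not every changed call is named here. Over the members, F-tests included, limma-trend lost 3 calls on log2(RPKM + 1) and 2 on log2(RPKM + 0.1). Fits to only the groups compared lost 1 and gained 7. In these smaller fits 6 members were called for clone E, 19 pathway genes for K and 26 for M, against 3, 12 and 15. The share of all genes called in these fits was not counted, so the rise cannot be read as particular to these genes. Leaving out 1 library gave 8 (without clone M replicate 3) to 16 pathway genes for M. Without KPC1 replicate 4, Nfkb1 was called for KPC1 (0.30, adjusted p = 0.0087) and among lines.

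The values that changed sign were uncalled and, apart from Icam1 in N (0.27 with all libraries), near 0. With limma-trend (pseudocounts 1 and 0.1) they were Nfkbia for H (-0.019 and -0.021), Birc3 for M (-0.0032 and -0.0024) and Nfkb1 for T (-0.048 and -0.049). Without scaling they were Birc3 for M (-0.010) and Nfkb1 for T (-0.049), and without the filter Nfkb1 for H (0.0075). Leaving out 1 library, the ranges were -0.087 to 0.205 for Nfkbia in H, -0.056 to 0.055 for Birc3 in M, -0.078 to 0.043, -0.110 to 0.0084, -0.0097 to 0.102 and -0.059 to 0.034 for Nfkb1 in H, N, T and V, -0.024 to 0.131 for Relb in K, and -0.305 (without clone N replicate 1) to 0.638 for Icam1 in N. The cause was not tested.

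Whether replicate numbers pair the samples is not given by the labels. Against the mono-culture 0 of 8 lines had all 4 same-number correlations over 0.1, and among the co-cultures 3 of 28 line pairs did (E and K, K and V, T and KPC1). By a looser measure, 24 of 36 libraries correlated best with their own number out of 4, a hint from the data and not the design. Sample titles are numbered by replicate across the 8 lines, with the mono-culture libraries last. What that order stands for is not given. With the number as a block, Tnfaip2 with clone M was called as well (0.33, adjusted p = 0.025), giving 3 members rather than 2, and no other member's call changed. Among the co-cultures the block gave 9 members, as without it, and 51 pathway genes rather than 46. The share of all genes called with the block was not counted.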
